A study of Homo sapiens with 16 samples.

Results

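The genes described here are 9 genes of glucose use and of the response to low oxygen: SLC2A1, HK2, PFKFB3, PGK1, ENO1, LDHA, ADM, CA9 and NDRG1. They were taken by name, with every probe that carried the name and was not a control, which gave 19 of the 41000 probes on the array and 9 of 27719 names. Expression was measured in undifferentiated Caco-2 cells, an epithelial cell line derived from a carcinoma of the human colon and the 1 line used throughout. All cultures received MEM with 1% FCS for 6 h. MED-CTL cells received the medium alone. PT-G cells received gliadin, the wheat protein fraction behind coeliac disease, after digestion with pepsin and trypsin. PT cells received the blank digest, prepared with the enzymes but no substrate, and p31-43 cells received 150 µg/ml of this synthetic gliadin peptide. By the paper's methods, heating inactivated both enzymes once digestion was done, and an activity assay with a trypsin substrate was used as a check. Cells of every group, MED-CTL included, were detached with trypsin-EDTA before RNA extraction. Each group had 4 cultures from 4 separate experiments that lay 1 or 2 passages apart, and each culture was hybridised to 1 one-colour Agilent array.

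Glycolysis turns glucose into pyruvate and lactate. Glucose enters the cell through transporters such as SLC2A1 (GLUT1) and is trapped by the hexokinase HK2. PFKFB3 makes fructose 2,6-bisphosphate, a strong activator of phosphofructokinase, and so sets the pace of the pathway. PGK1 and ENO1 catalyse later steps, and LDHA reduces pyruvate to lactate. When oxygen is low, the factor HIF1A escapes degradation, pairs with ARNT and binds short motifs with the core RCGTG near its targets. ADM (adrenomedullin, a vasodilator peptide), CA9 (a carbonic anhydrase of the cell surface) and NDRG1 (a stress-responsive protein) are textbook targets, as are the glycolytic genes. PFKFB3 and HK2 also respond to growth factor and stress signals.

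The promoter sequences below show 1 form of that core, ACGTG, in front of the 2 genes whose probes differed most, PFKFB3 and HK2, and in front of LDHA and CA9, whose probes did not pass a test. Each is the 250 bases before a RefSeq transcription start, on the plus strand of GRCh38.p14, with ACGTG or its complement CACGT in capitals. For the genes with more than 1 start the start with the most matches is shown. The regions are chr10:6202682-6202931 for PFKFB3, chr2:74834920-74835169 for HK2, chr11:18394313-18394562 for LDHA and chr9:35673678-35673927 for CA9.
PFKFB3: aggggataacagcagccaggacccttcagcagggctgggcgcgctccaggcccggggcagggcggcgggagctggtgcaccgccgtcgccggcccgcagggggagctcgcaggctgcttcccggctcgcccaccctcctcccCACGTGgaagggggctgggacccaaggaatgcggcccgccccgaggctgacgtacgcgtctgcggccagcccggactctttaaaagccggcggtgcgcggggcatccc
HK2: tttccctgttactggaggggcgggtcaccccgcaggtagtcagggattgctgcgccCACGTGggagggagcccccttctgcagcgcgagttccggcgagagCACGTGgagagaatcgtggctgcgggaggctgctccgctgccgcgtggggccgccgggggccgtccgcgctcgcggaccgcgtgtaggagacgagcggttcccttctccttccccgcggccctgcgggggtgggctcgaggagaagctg
LDHA: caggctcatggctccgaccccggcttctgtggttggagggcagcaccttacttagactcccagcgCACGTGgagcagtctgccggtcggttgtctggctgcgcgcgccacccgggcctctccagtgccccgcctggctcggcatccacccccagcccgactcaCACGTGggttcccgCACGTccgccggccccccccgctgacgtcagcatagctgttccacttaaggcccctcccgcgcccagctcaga
CA9: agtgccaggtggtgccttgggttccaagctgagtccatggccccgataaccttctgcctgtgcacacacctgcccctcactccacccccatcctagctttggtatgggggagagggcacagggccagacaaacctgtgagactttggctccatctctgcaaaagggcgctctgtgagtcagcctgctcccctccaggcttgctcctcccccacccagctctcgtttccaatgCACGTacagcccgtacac
On both strands together, ACGTG was found in 18.5% of the 35116 RefSeq windows of this length and the palindrome CACGTG, which holds an ACGTG on each strand, in 6.34%. The PFKFB3 window holds 1 CACGTG, the HK2 window 2 and the LDHA window 2, while the CA9 window holds 1 match of ACGTG on the minus strand and no CACGTG. The PGK1 window had 2 matches of ACGTG, and those of SLC2A1, ENO1 and ADM had no ACGTG in these 250 bases. The other form, GCGTG, which is left in lower case, was found in 32.2% of all windows. It occurred 2 times each in the HK2 window shown and in that of ENO1, once each for PGK1 and ADM, and not in the windows shown for PFKFB3, LDHA and CA9 nor in that of SLC2A1. The table held no window for NDRG1. The windows shown for PFKFB3, which differed between the groups, and LDHA, for which no difference passed, both hold the motif. PFKFB3, HK2 and LDHA have 2 windows each. The window not shown held no ACGTG for PFKFB3 and LDHA, and 2 ACGTG but no CACGTG for HK2. It held 1 GCGTG for each of these genes. The shares of all windows count single windows, not the one with the most matches. The matches describe the letters and were not tested for binding.

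The 16 arrays had a median intensity of 153 to 410 over a local background of 48 to 65, with 27660 to 33947 spots well above background. By the date each carries, the arrays belonged to 4 runs with 1 array of every group. Runs and replicate numbers coincide except that MED-CTL replicate 2 carries the date of run 1 and MED-CTL replicate 1 that of run 2. The labels do not say which of the 2 marks an experiment, and the differences within runs 1 and 2 depend on it. The arrays lay on 5 slides. The slide with PT replicate 3 also held p31-43 replicate 4 and no MED-CTL array. Of 12 markers of intestinal epithelium, 11 were well above background on all 16 arrays, CDX1 being the exception. Of the markers of fibroblasts, immune cells and endothelium, 2, 3 and 2 of 4 were well above background on all arrays, and COL1A2, PTPRC and CDH5 on none. None of those 12 passed the test in any comparison described here. The probes of 8 of the 9 genes were well above background on all 16 arrays, except 1 of the 2 NDRG1 probes (15 arrays). CA9 was not well above background on any array. Its normalized log2 signal averaged 5.99 in MED-CTL, 6.00 in p31-43, 6.03 in PT and 6.01 in PT-G, and no fold change is given for it.

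A probe is said to rise or fall when the Benjamini-Hochberg adjusted p of the limma model was under 0.05, and the nominal p under 0.01, the threshold of the study's methods, is given beside it. Each gene is represented by its brightest probe. The others are given with it for PFKFB3, HK2 and ENO1, and only in part for PGK1, LDHA and NDRG1. Levels are log2 intensities after quantile normalization, and differences are log2 differences, with fold changes (FC) above 1 for a higher signal. Probes of 1 gene share its RNA and are not replicates. Precision is limited by the small number of arrays, and in a bulk sample fewer cells with a transcript and less of it per cell cannot be told apart. Unless a block is named, deviations shared by the arrays of a run stayed in the SEs, intervals and p-values. PT-G, PT and p31-43 were compared with the same MED-CTL arrays.

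Of the 9 genes, PFKFB3 rose under both digests, by a similar amount, and not under the peptide, on its brightest probe. Its dimmer probes did not pass, and both calls were lost with the background-subtracted signal and in fits of only 2 groups. HK2 was also higher under both digests on both of its probes, and passed the adjusted threshold only in fits that blocked on replicate number, run or slide, and the brighter of the probes only on slide. SLC2A1, PGK1, ENO1, LDHA, ADM and NDRG1 passed no test against MED-CTL. Between PT-G and PT no probe of the 9 genes passed the test.

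PFKFB3, the kinase that raises fructose 2,6-bisphosphate, has 4 probes on the array. The brightest, A_24_P261259, lies nearest the 3′ end by the array's annotation. In runs 1 to 4 its log2 intensity was 11.53, 11.52, 11.70 and 11.64 on the MED-CTL arrays. It was 12.04, 12.21, 12.31 and 12.16 on the PT-G arrays and 12.16, 12.10, 11.97 and 11.98 on the PT arrays. On the p31-43 arrays it was 11.48, 11.53, 11.45 and 11.51. All 8 arrays of the digests thus lay above all 8 of the other groups, while MED-CTL and p31-43 overlapped, as did PT-G and PT. Under PT-G the probe rose by 0.58 on the log2 scale (SE 0.07, FC 1.50, 95% confidence interval of the FC 1.35 to 1.66, n = 4 arrays each, limma, adjusted p = 0.00136). Under PT it rose by 0.45 (SE 0.07, FC 1.37, interval 1.23 to 1.52, limma, adjusted p = 0.00800). Under p31-43 the difference was −0.10 (SE 0.07, FC 0.930, interval 0.838 to 1.03, limma, adjusted p = 1.00).

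**Figure D1:**
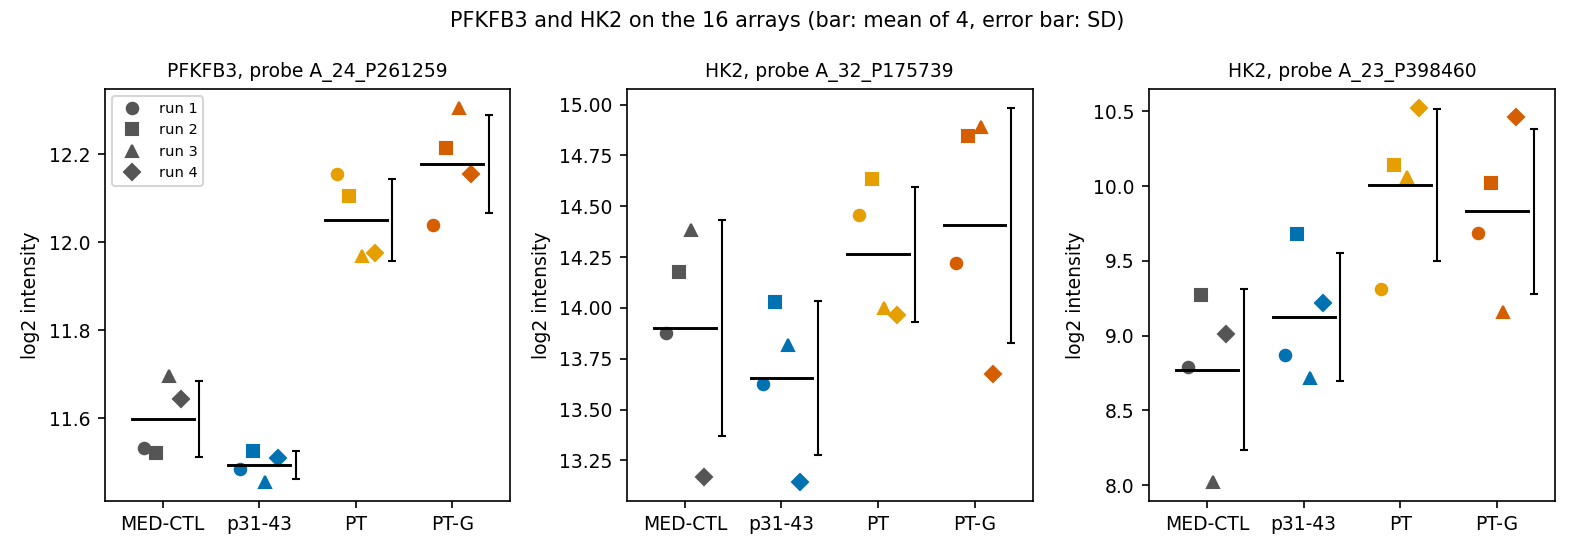
Log2 intensity of the brightest PFKFB3 probe and of both HK2 probes on each of the 16 arrays, with marker shapes for the 4 runs, bars for the mean of 4 arrays and error bars for the SD. For PFKFB3 the lowest digest array, at 11.97, lies above the highest MED-CTL or p31-43 array, at 11.70, while the HK2 groups spread more widely and overlap in most pairs.

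Set against the peptide, the same PFKFB3 probe was 0.69 higher under PT-G (SE 0.07) and 0.56 higher under PT (SE 0.07), at an adjusted p of 4.96e-04 and 0.00254 in limma. In these 2 comparisons 1.16% and 0.769% of all 40982 probes tested had an adjusted p under 0.05. Between PT-G and PT the difference was 0.13 (95% confidence interval −0.02 to 0.28, limma, adjusted p = 1.00). The PT call against the peptide was lost with the background-subtracted signal (0.0562) and under median scaling (0.124).

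Within the runs, the PT-G array exceeded the MED-CTL array of the same run by 0.51, 0.69, 0.61 and 0.51, and the PT array did so by 0.62, 0.58, 0.27 and 0.33. The direction was the same in 4 of 4 runs for both digests. For p31-43 the differences were −0.05, 0.01, −0.24 and −0.13. A block for the run gave adjusted p = 8.94e-04 under PT-G and 0.00392 under PT (limma), and leaving out any 1 array kept both under 0.05, at most 0.00831 and 0.0356. Both calls were lost with the background-subtracted signal (limma, adjusted p = 0.0618 for PT-G and 0.148 for PT) and when only the 2 groups compared were fitted (0.0844 and 0.104), and that for PT under median scaling (0.122). Within runs 1 and 2 alone the differences were 0.60 for both digests (limma, adjusted p = 0.0215 and 0.0221). Within runs 3 and 4 alone they were 0.56 for PT-G and 0.30 for PT and did not pass (0.508 and 0.842).

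The other 3 PFKFB3 probes were dimmer and did not pass. They were 0.18, 0.33 and 0.19 higher under PT-G and 0.06, 0.10 and 0.17 higher under PT, with the smallest nominal p at 0.123 (limma, adjusted p = 0.840). Their 95% intervals for PT-G reached from −0.41 to 0.77, from −0.10 to 0.75 and from −0.22 to 0.59, and so held both 0 and the value of the brightest probe. On each of the 3, the mean over the arrays of run 4 was the lowest of the 4 runs. For A_23_P95755, the third toward the 3′ end, the run means were 8.59, 8.54, 8.49 and 7.82. On the brightest probe the 4 run means lay between 11.80 and 11.86. With the run as a block, the dim PFKFB3 probes still had no nominal p under 0.01 under either digest (limma). How much of their spread came from run 4 was not tested.

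HK2, the hexokinase that commits glucose to the cell, has 2 probes. On the probe A_23_P398460 the MED-CTL arrays of runs 1 to 4 read 8.79, 9.27, 8.02 and 9.01, and the p31-43 arrays 8.87, 9.68, 8.72 and 9.22. The PT arrays read 9.31, 10.14, 10.06 and 10.52 and the PT-G arrays 9.68, 10.02, 9.16 and 10.46. All PT arrays lay above all MED-CTL arrays, whereas the PT-G array of run 3 fell within their range. The difference from MED-CTL was 1.06 under PT-G (SE 0.34, FC 2.08, 95% interval of the FC 1.26 to 3.44, limma, adjusted p = 0.244). Under PT it was 1.24 (SE 0.34, FC 2.36, interval 1.43 to 3.89, limma, adjusted p = 0.138). Under p31-43 it was 0.35 (SE 0.34, limma, adjusted p = 1.00).

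In each of the 4 runs the digest arrays exceeded the MED-CTL array on this probe, by 0.90, 0.75, 1.13 and 1.45 for PT-G and by 0.52, 0.87, 2.04 and 1.52 for PT. Both differences passed when the replicate number was blocked (limma, adjusted p = 0.0448 for PT-G and 0.0218 for PT) and when the run was (0.0138 for PT-G and 0.00587 for PT). The p31-43 arrays also lay above the MED-CTL arrays of their runs, by 0.08 to 0.69, without passing under any of these blocks. A single array moved the PT-G value between 0.81 (MED-CTL replicate 3 left out) and 1.28 (PT-G replicate 3 left out), and no adjusted p fell under 0.05 when any 1 array was left out.

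On the brighter HK2 probe, A_32_P175739, which lies nearer the 3′ end, the MED-CTL arrays read 13.88, 14.18, 14.38 and 13.17 in runs 1 to 4. The PT-G arrays read 14.22, 14.84, 14.89 and 13.67, the PT arrays 14.46, 14.63, 14.00 and 13.97, and the p31-43 arrays 13.63, 14.03, 13.82 and 13.14. Every group overlapped the others, and in MED-CTL, p31-43, PT and PT-G alike the array of run 4 was the lowest. The difference was 0.51 under PT-G (SE 0.31, 95% interval −0.16 to 1.17, limma, adjusted p = 0.844), 0.36 under PT (SE 0.31, interval −0.30 to 1.03, adjusted p = 0.827) and −0.25 under p31-43 (SE 0.31, adjusted p = 1.00). Within the runs it was positive in 4 of 4 for PT-G (0.34, 0.67, 0.51 and 0.50) and in 3 of 4 for PT (0.58, 0.45, −0.38 and 0.80). The exception, PT replicate 3, had the highest median intensity of all arrays, 410, and lay on another slide than the other arrays of its run. The MED-CTL array of that run, MED-CTL replicate 3, had the lowest, 153. It was the highest MED-CTL array on this probe and the lowest on the other, where the PT difference of run 3 was 2.04. The part of either array in these values was not tested. Without PT replicate 3 the PT difference on A_32_P175739 was 0.45. Leaving out any 1 array moved the PT-G value between 0.26 and 0.75 and the PT value between 0.12 and 0.52, the lowest of both without MED-CTL replicate 4, and none of these passed.

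The slide with PT replicate 3 held no MED-CTL array, so a slide block did not set that array directly against MED-CTL. With the slide as a block this probe was 0.51 higher under PT-G (SE 0.10) and 0.58 higher under PT (SE 0.10), at an adjusted p of 0.00811 and 0.00719 in limma, whereas blocking on run left both above the threshold (0.113 and 0.240). Against the p31-43 arrays, PT-G exceeded it by 0.75 without a block (SE 0.31, limma, adjusted p = 0.460), a difference that passed when the run was blocked (0.0204). Both HK2 probes thus lay higher under both digests, at sizes whose intervals overlapped. Between PT-G and PT the differences were 0.14 (95% interval −0.52 to 0.81) and −0.18 (−0.90 to 0.54).

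**Figure D2:**
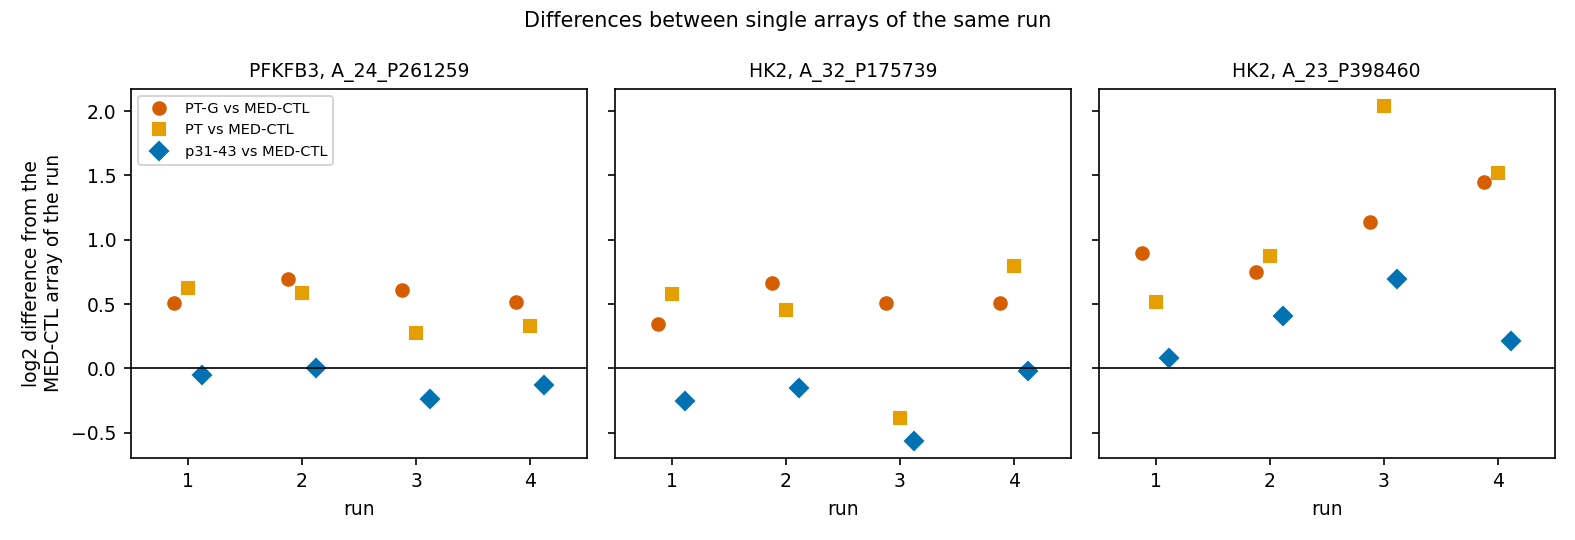
Log2 difference between the PT-G, PT or p31-43 array and the MED-CTL array of the same run, for PFKFB3 and both HK2 probes, runs 1 to 4 on the horizontal axis. Each point is 1 pair of arrays. All PT-G points lie above 0, the lowest at 0.34, and among the PT points the one of run 3 on A_32_P175739 lies below it, at −0.38.

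The transporter SLC2A1, with 1 probe, read from 16.39 to 16.81 on the MED-CTL arrays, 16.42 to 16.60 under PT-G, 16.19 to 16.65 under PT and 16.21 to 16.45 under p31-43. The groups overlapped. Its differences from MED-CTL were −0.04, −0.16 and −0.19 (SE 0.11 each, limma, adjusted p = 1.00, 0.776 and 1.00). The p31-43 array was below the MED-CTL array in 4 of 4 runs, by 0.06 to 0.36, a difference that did not pass.

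Of the later enzymes, PGK1, which makes the first ATP of the pathway, was measured on 3 probes, the brightest on 10 spots. That probe differed by −0.04 with PT-G, 0.04 with PT and 0.06 with p31-43 (SE 0.10 each). ENO1, the enolase, differed by −0.14, 0.03 and 0.11 on its brighter probe (SE 0.14 each) and by 0.02, 0.25 and 0.29 on the other (SE 0.17 each). LDHA, the lactate dehydrogenase of fermenting cells, differed by 0.02, 0.06 and 0.09 on the brightest of its 3 probes (SE 0.15 each). None of these passed, at nominal p from 0.110 upward, and the groups overlapped on every probe.

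Among the hypoxia-responsive genes, ADM read 15.47 to 15.87 on the MED-CTL arrays, 15.43 to 15.61 under PT-G, 15.20 to 15.56 under PT and 15.34 to 15.95 under p31-43. Its differences from MED-CTL were −0.07, −0.20 and 0.09 (SE 0.13 each). The PT arrays were 0.29 below the p31-43 arrays (SE 0.13, limma, adjusted p = 0.636). NDRG1 read 12.05 to 12.40 under MED-CTL and 12.29 to 12.49 under PT, a difference of 0.19 (SE 0.09, limma, adjusted p = 0.618), with 0.02 under PT-G and 0.07 under p31-43.

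**Figure D3:**
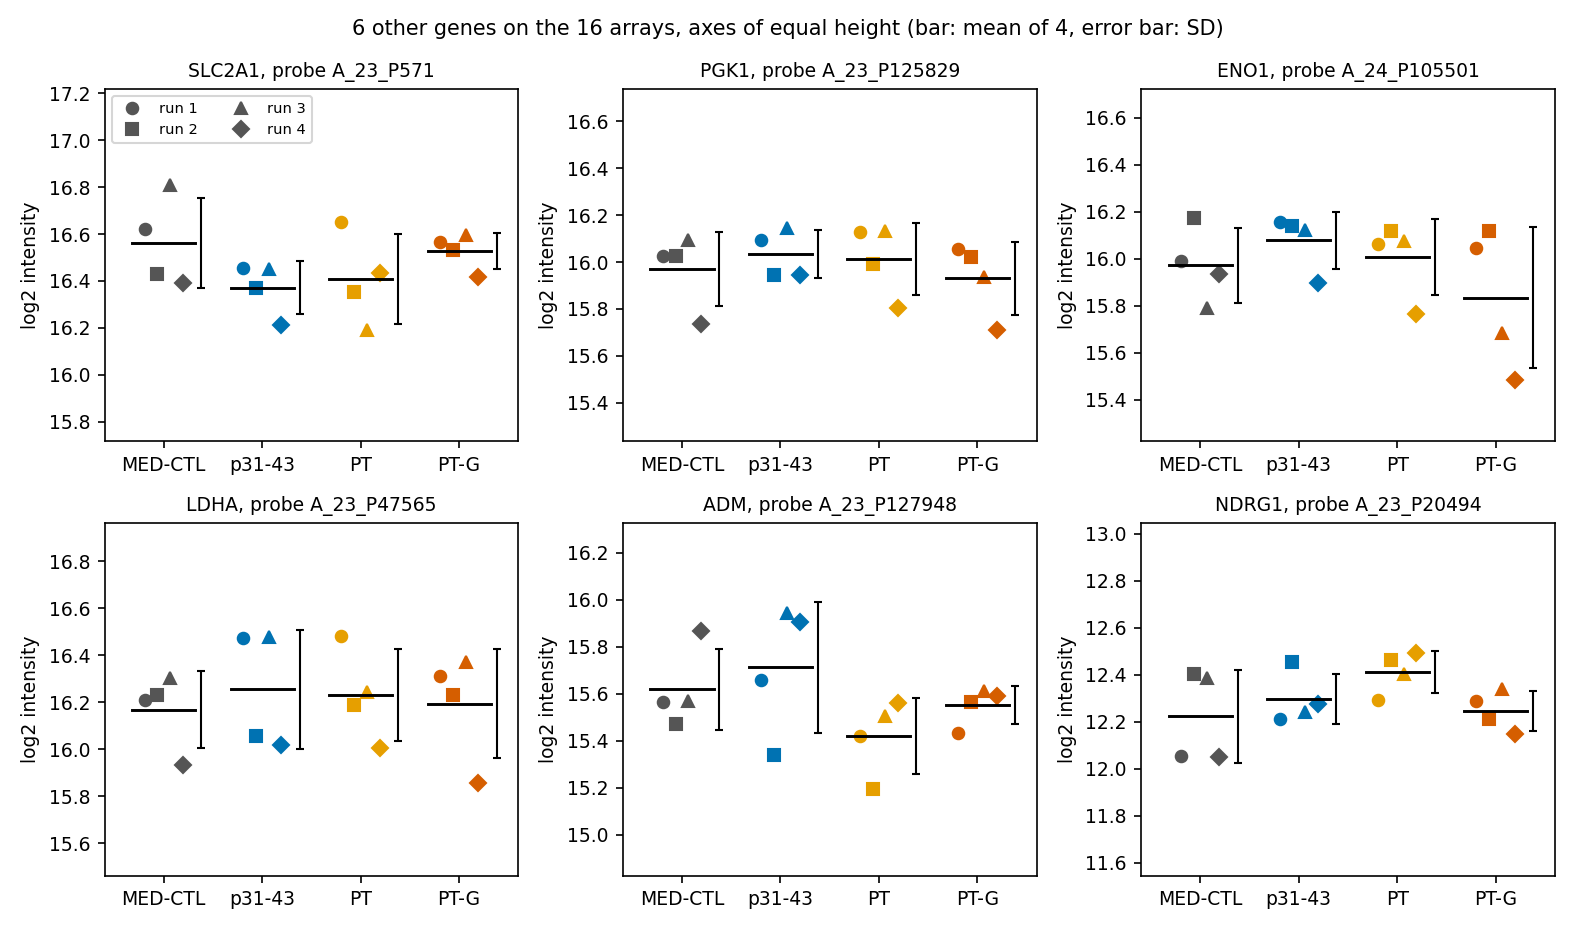
Log2 intensity of the brightest probe of SLC2A1, PGK1, ENO1, LDHA, ADM and NDRG1 on the 16 arrays, with marker shapes for the 4 runs, bars for the mean of 4 arrays and error bars for the SD. In all 6 panels the 4 groups overlap, on axes of equal height.

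On the brightest probes of these 6 genes the differences lay between −0.14 and 0.02 for PT-G, −0.20 and 0.19 for PT, and −0.19 and 0.11 for p31-43. The ends of their 95% intervals corresponded to fold changes of 0.742 and 1.27, 0.719 and 1.31, and 0.745 and 1.32. Dimmer probes reached further, such as −0.23 for a PGK1 probe under PT-G, and 0.25 under PT and 0.29 under p31-43 for ENO1. For the LDHA probe A_32_P44568 the interval under PT-G ran from 0.605 to 1.57 in fold change. True differences within these intervals were compatible with the values of 4 arrays per group. The smallest change that the test could detect was not computed.

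Counted over probes, 1 of the 19 had an adjusted p under 0.05 between PT-G and MED-CTL, where 0.944% of all 40982 probes tested did, and 2 of 19 had a nominal p under 0.01, where 3.44% did. Between PT and MED-CTL the counts were 1 and 2 of 19, against 0.82% and 3.64% of all probes. The nominal calls were the brightest PFKFB3 probe and the HK2 probe A_23_P398460 in both. PT-G arrays all lay above the MED-CTL arrays on 1 of the 19 probes (2.01% of all probes) and PT arrays on 2 (2.36%). No probe was lower without overlap in either comparison (1.86% and 2.72% of all probes). With the run as a block 2 of 19 probes passed the adjusted threshold for each digest, where 5.75% and 6.56% of all probes did, and with the replicate number as a block 2 of 19 for each, where 3.94% and 4.33% did. The median difference over the 19 probes was 0.02 for PT-G, 0.06 for PT and 0.05 for p31-43, beside −0.0059, −0.0100 and −0.0011 over all probes.

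Between p31-43 and MED-CTL, 0 of 19 probes passed in limma at an adjusted p under 0.05 (0% of all probes), and 0 had an unadjusted p under 0.05 (2.15%). The same counts for PT-G against PT were 0 (0%) and 0 (0.781%). These fits held no block, so shared deviations of a run stayed in their spread. With the run blocked, 0 of 19 had a nominal p under 0.01 in either comparison, where 1.38% and 0.317% of all probes did. The differences between PT-G and PT ranged from −0.23 for the dimmer ENO1 probe to 0.23 for a dim PFKFB3 probe.

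**Figure D4:**
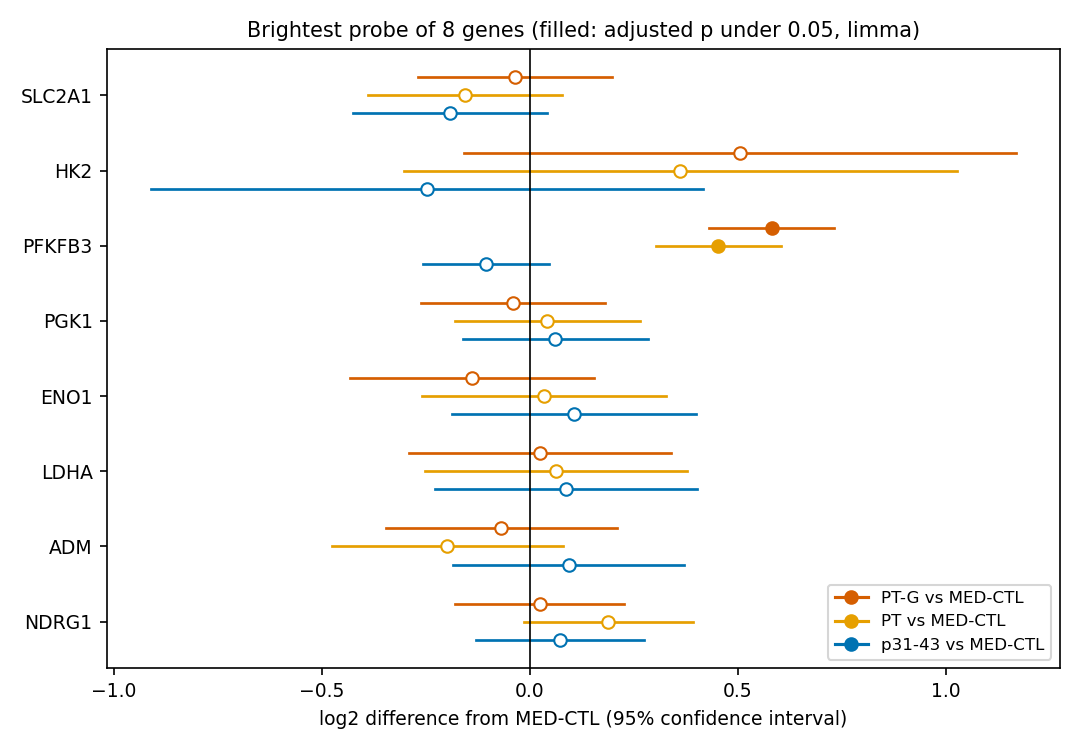
Log2 difference from MED-CTL of the brightest probe of 8 genes, with 95% confidence intervals, for PT-G, PT and p31-43. Filled points have an adjusted p under 0.05 (limma). Both filled points belong to PFKFB3, at 0.58 and 0.45, and the HK2 intervals are the widest of the 8.

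The rest of the glycolytic pathway was read from 34 further genes, by their brightest probe, of which 27 were well above background on all arrays. None passed the adjusted threshold against MED-CTL under PT-G, PT or p31-43, and their median difference was 0.02 under PT-G and 0.05 under PT. At a nominal p under 0.01 stood ALDOA, an aldolase, under PT (0.34, SE 0.11, limma, adjusted p = 0.239). The lowest nominal p values under PT-G were those of PFKFB2, a relative of PFKFB3 (0.33, SE 0.12, limma, adjusted p = 0.364), SLC16A3, the lactate exporter MCT4 (0.67, SE 0.25, adjusted p = 0.422), and SLC2A5, a fructose transporter (−0.50, SE 0.21, adjusted p = 0.512). SLC16A3 was higher in 4 of 4 runs under both digests, by 0.35 to 1.01 under PT-G and 0.37 to 1.01 under PT, and passed with the run as a block (limma, adjusted p = 0.00356 and 0.00443). With that block 3 of the 34 genes passed under PT-G, 2 of them higher, and 4 under PT, all higher, beside 5.75% and 6.56% of all probes. Blocking on replicate number instead, 0 of the 34 passed under PT-G and 3 under PT (PFKFB4, ALDOA and ENO2), beside 3.94% and 4.33% of all probes, and SLC16A3 passed under neither digest. PFKFB4, another relative of PFKFB3, differed by 0.73 in the PT arrays (SE 0.27, limma, adjusted p = 0.374) and by 0.24 in the PT-G arrays (SE 0.27, adjusted p = 1.00).

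Of 35 further genes known to respond to hypoxia, 34 were measured and 3 rose under both digests: BHLHB2 (now BHLHE40), EDN1 and MAFF. Of all probes tested, 0.944% passed under PT-G and 0.82% under PT, in either direction. This and the other lists were chosen with earlier results of these data known. The shares of all probes, here and for the blocked fits, are therefore no test of a list. BHLHB2 encodes a transcriptional repressor of the clock, EDN1 the peptide endothelin-1, and MAFF a small Maf transcription factor, and each is also known as a gene induced by stimuli other than low oxygen. BHLHB2 read 7.95, 8.21, 7.97 and 7.63 on the MED-CTL arrays of runs 1 to 4, 9.48, 9.54, 9.42 and 9.28 on the PT-G arrays and 9.57, 9.31, 9.33 and 9.42 on the PT arrays. It rose by 1.49 under PT-G (SE 0.13, limma, adjusted p = 1.51e-04) and by 1.47 under PT (SE 0.13, limma, adjusted p = 1.45e-04), without overlap. Within runs 3 and 4 alone these BHLHB2 differences did not pass (0.176 and 0.212). Under p31-43 it read 7.99 to 8.54, a difference of 0.22 (SE 0.13, adjusted p = 1.00).

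Under PT-G, EDN1 rose by 1.63 (SE 0.26) at an adjusted p of 0.00854 in limma, and under PT by 1.60 (SE 0.26) at 0.00942. For MAFF the rise was 1.83 (SE 0.37) at 0.0309 and 1.71 (SE 0.37) at 0.0467. Neither overlapped MED-CTL under either digest. The EDN1 calls were lost when only the 2 groups compared were fitted (limma, adjusted p = 0.103 and 0.0748) and within either pair of runs (0.0631 to 0.470). The MAFF calls were lost in that fit too (0.110 and 0.131), with the background-subtracted signal (0.0503 and 0.0793), within runs 3 and 4 (0.176 and 0.286), and when any 1 of MED-CTL replicates 2, 3 and 4 or of the 4 PT-G arrays was left out. For PT they were also lost without any 1 PT array or p31-43 replicate 1, and the values without 1 array reached 0.104 for PT-G and 0.147 for PT.

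The other 31 of the 34 did not pass. VEGFA, the angiogenic growth factor, was 0.52 higher under PT-G (SE 0.18, limma, adjusted p = 0.310) and 0.40 higher under PT (SE 0.18, adjusted p = 0.510), in 4 of 4 runs each. ANKRD37 passed the nominal threshold under both digests, 0.69 higher under PT-G (SE 0.22, limma, adjusted p = 0.263) and 0.80 under PT (SE 0.22, adjusted p = 0.150). Once the run was blocked, 9 of the 34 passed under PT-G, 8 of them higher, and 5 under PT, all higher, beside 5.75% and 6.56% of all probes. Blocking on replicate number, 5 passed under PT-G, 4 of them higher, and 4 under PT, all higher, beside 3.94% and 4.33%. The gene with a lower signal under PT-G was C7orf68 with either block. With the slide blocked, 8 passed higher and 2 lower (C7orf68 and VLDLR) under PT-G, and 6 under PT, all higher, beside 9.3% and 6.98%. The median over the 34 genes was 0.03 under PT-G and 0.05 under PT.

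**Figure D5:**
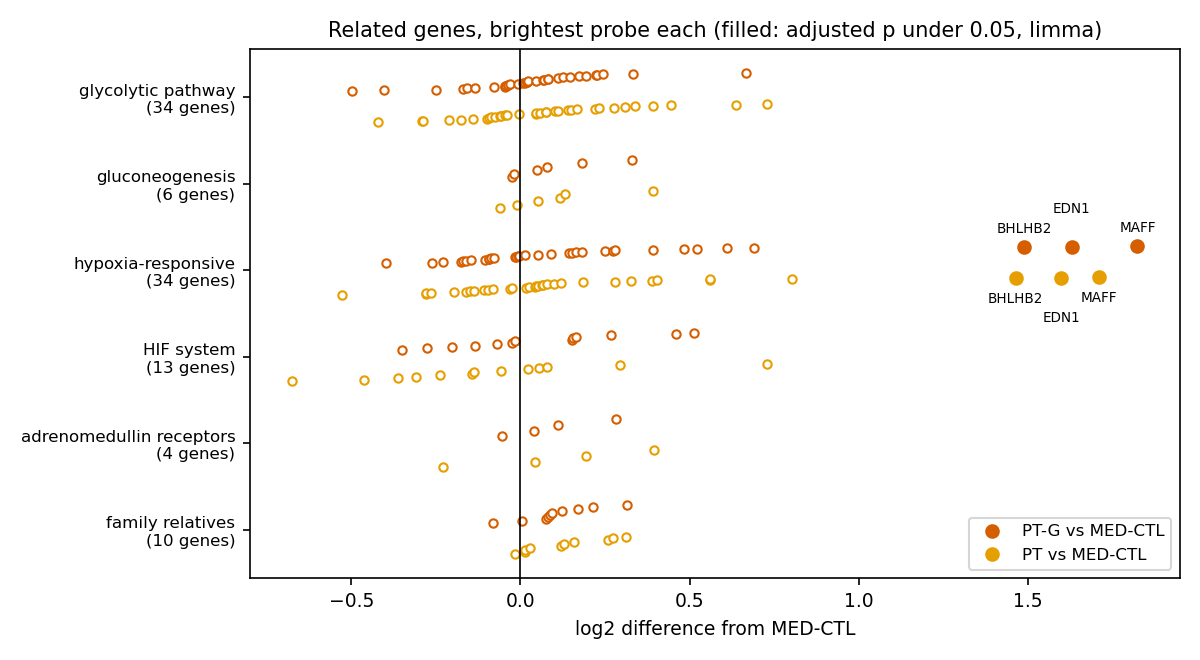
Log2 difference from MED-CTL under PT-G and PT of the genes of 6 related lists, each point 1 gene by its brightest probe. Filled points have an adjusted p under 0.05 (limma) and are named. BHLHB2, EDN1 and MAFF, between 1.47 and 1.83, are the filled points, and the glycolytic genes lie between −0.50 and 0.73.

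Without a block no gene of the oxygen-sensing machinery passed. Of 13 genes, HIF1A differed by −0.13 under PT-G and −0.31 under PT (SE 0.24 each, limma, adjusted p = 1.00 and 0.806), and the prolyl hydroxylase EGLN2 by 0.51 and 0.73 (SE 0.25, adjusted p = 0.676 and 0.298). EGLN2 passed under PT in the fits that blocked on run, replicate number or slide. Of the hydroxylases, EGLN3 differed by 0.46 and 0.30, and it passed under PT-G, as did HIF1AN with a lower signal, when the slide was blocked. Without a block no gene passed among 6 of gluconeogenesis, 4 of the adrenomedullin receptor or 10 relatives of PGK1, LDHA, ADM, CA9 and NDRG1. Among the relatives ADM2 passed under PT, with a higher signal, in the fits that blocked on run, replicate number or slide, and CA13 under both digests when the slide was blocked. The receptor gene CALCRL was not well above background on any array, while its partners RAMP1 and RAMP2 were on all 16. Among the epithelial markers, KRT20, a keratin of differentiated intestinal cells, rose under PT-G by 0.63 (SE 0.12, limma, adjusted p = 0.0251). Under PT its difference was 0.50 (SE 0.12, limma, adjusted p = 0.0884), which passed with blocks for replicate number (0.0372), run (0.00183) or slide (0.00276). In each of these blocked fits CDX2, another of the epithelial markers, passed under PT-G with a lower signal. The KRT20 call for PT-G was lost with the background-subtracted signal (0.0825), under median scaling (0.0734), in the fit of only 2 groups (0.251), within either pair of runs (0.255 and 0.535), and on leaving out MED-CTL replicate 2 (0.0952), MED-CTL replicate 4 (0.0532), PT-G replicate 2 (0.0805) or PT-G replicate 4 (0.0894).

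As a description over the 16 arrays, with the mean of each run taken off, the named genes whose pattern lay nearest to that of the brightest PFKFB3 probe were IL11, TNS4 and ARL14, with Pearson's r of 0.987, 0.985 and 0.983. The arrays share the group differences that these values rest on. IL11, an interleukin, differed from MED-CTL by 1.09 with PT-G, 0.87 with PT and −0.21 with p31-43. TNS4, a tensin of focal adhesions, differed by 2.02, 1.62 and −0.17, and ARL14, a small GTPase, by 1.46, 1.08 and −0.23.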

How the data were processed

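RNA of 16 Caco-2 cultures was measured on one-colour Agilent whole human genome arrays, 1 array per culture. The deposited scanner files hold the intensity of each spot, as Agilent Feature Extraction 9.5.3.1 gave it per the file headers. The deposited log2 table holds median foreground intensities that the authors quantile normalized without background correction.

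Here the log2 median foreground of the 43376 spots that were not controls was quantile normalized. Spots marked as outliers (0.256%) were left out and spots of 1 probe averaged. A probe needed 3 unmarked arrays in each group, which 40982 of 41000 had. limma 3.58.1 in R 4.3.3 fitted the 4 groups together, without covariates, and p-values were adjusted by Benjamini-Hochberg over all probes tested. Groups came from the sample labels, and the script was tested on simulated data. Related genes were matched by name or accession, 125 of 126 listed. A list gene was named if its adjusted p was under 0.05, or else if it had 1 of the 3 lowest nominal p values in its list. VEGFA, ANKRD37, PFKFB4, HIF1A, EGLN2, EGLN3, C7orf68, VLDLR and CDX2 were named after their values were seen. The genes and lists were chosen with earlier results of these data known.

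Replicate numbers paired the arrays for PT-G and MED-CTL and for p31-43 and MED-CTL. Deviations of same-numbered arrays from their group means correlated at 0.395 to 0.857 and at 0.262 to 0.707, above 0.1 in 4 of 4 pairs each. For arrays of the same run these correlations were higher at the low end, at 0.628 to 0.857 and at 0.538 to 0.707. The alternatives were other background corrections and scalings, the deposited table, a filter on dim probes, keeping marked spots, blocks for replicate number, run, slide and period, fits of 2 groups, each array left out and other probes. Each period on its own was added after seeing the data. Promoter windows came from RefSeq on GRCh38.p14.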

Additional observations from a re-analysis of the deposited data

Results flagged for a closer look

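In 6 of 76 sets of 4 arrays (each probe in each group), 1 array lay apart from the other 3 by Dixon's ratio of its gap to the range above the 95% critical value. Chance marks about 1 in 20 such sets. PFKFB3 probe A_24_P206604 was low in PT-G replicate 4 (ratio 0.890), at 7.10 against 7.74 for the nearest array. ENO1 probe A_24_P105501 was low in p31-43 replicate 4 (0.879), at 15.90 against 16.12, and in PT replicate 4 (0.840), at 15.77 against 16.06. NDRG1 probe A_24_P38387 was low in PT-G replicate 4 (0.871), at 6.21 against 6.85, and so was PGK1 probe A_24_P604649 (0.837), at 13.23 against 14.11. LDHA probe A_32_P44568 was high in PT replicate 1 (0.830), at 14.57 against 13.94. The first 5 cases were arrays of run 4, whose mean was the lowest of the 4 runs on 14 of the 19 probes. The brightest PFKFB3 probe and both HK2 probes had no such array in any group.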

How the results depend on the processing

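The differences of the brightest PFKFB3 probe and of both HK2 probes under PT-G and PT kept their direction in every alternative run. Of the dim PFKFB3 probes, 2 turned sign when 1 array was left out, A_23_P95755 down to −0.0182 under PT-G and −0.139 under PT, and A_24_P111096 down to −0.0575 under PT. The counts of probes with an adjusted p under 0.05 were 1 of 19 for PT-G and 1 of 19 for PT. They became 0 and 0 with the background-subtracted signal, in fits of only 2 groups and within runs 3 and 4, and 0 for PT under median scaling. Blocking on replicate number or on run made them 2 and 2, and blocking on slide 3 and 3, where 9.3% and 6.98% of all probes passed. For PT and MED-CTL the deviations of same-numbered arrays correlated less evenly, at −0.00542 to 0.411, above 0.1 in 2 of 4 pairs. For PT-G and PT the correlations were 0.0492 to 0.695, above 0.1 in 3 of 4 pairs. Paired by run, PT and MED-CTL gave −0.00542 to 0.620, above 0.1 in 3 of 4 pairs. The counts at a nominal p under 0.01, 2 and 2, became 4 and 4 with the slide block, where 12.2% and 10.6% of all probes did. For PT-G that count was 1 with the background-subtracted signal, normexp, fits of 2 groups and runs 3 and 4, and for PT 0 within runs 3 and 4. For p31-43 it rose from 0 to 1 within runs 1 and 2. Leaving out 1 array gave 1 to 2 nominal calls for each digest, with 1 for PT-G without MED-CTL replicate 2 or 3 or PT-G replicate 1, 2 or 4, and for PT without MED-CTL replicate 3 or PT replicate 4.

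Differences that passed no test changed sign as follows, and the cause was not tested. Median scaling, which moved the median of all probes to −0.0417 (PT-G), −0.109 (PT) and −0.0819 (p31-43), gave 0.0178 for SLC2A1, 0.0211 for PGK1 and 0.0013 for ADM under PT-G, and 0.0046 for PFKFB3 under p31-43. The background-subtracted signal gave −0.0202 for PGK1, −0.0139 for ENO1, −0.0550 for LDHA and −0.0219 for ADM under p31-43, and −0.0062 for NDRG1 under PT-G. The slide block gave −0.0723 and 0.0125 for the HK2 probes between PT-G and PT, and −0.0048 for PGK1 under p31-43. Runs 1 and 2 gave 0.0228 for SLC2A1, 0.0122 for PGK1 and 0.0011 for ENO1 under PT-G, −0.0063 for PGK1 and −0.0186 for ADM under p31-43, and between PT-G and PT −0.0121 and 0.128 for HK2 and −0.0029 for PFKFB3. Runs 3 and 4 gave −0.0038 for LDHA under PT-G. Other probes gave 0.0157 (PGK1), 0.0211 (ENO1), −0.0386 (LDHA) and −0.0630 (NDRG1) under PT-G, −0.188 and −0.0901 (PGK1), −0.177 (LDHA) and −0.0976 (NDRG1) under PT, and 0.350 (HK2), 0.197 and 0.139 (PFKFB3), −0.0620 and −0.0423 (PGK1) and −0.139 (LDHA) under p31-43.

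Leaving out 1 array moved the PT-G difference from −0.0928 to 0.0464 for SLC2A1, −0.118 to 0.0333 for PGK1, −0.0543 to 0.137 for LDHA, −0.117 to 0.0151 for ADM and −0.0347 to 0.0840 for NDRG1. The PT difference ran from −0.0349 to 0.112 for PGK1, −0.0277 to 0.113 for ENO1 and −0.0218 to 0.138 for LDHA, and that of p31-43 from −0.0155 to 0.103 for PGK1. Between PT-G and PT the HK2 probes ran from −0.0179 to 0.389 and from −0.412 to 0.0458.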
